A study of Mus musculus with 6 samples.

Results

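Mt1, Mt2, Slc30a1 and Mtf1 are the core genes by which mouse cells bind and expel excess zinc. They were selected by symbol, and each symbol matched 1 row, so that the group holds 4 of the 22564 protein-coding genes of the deposited expression table. The samples are labelled as EOMA cells, an established line from a mouse haemangioendothelioma, kept in medium with fetal bovine serum under normoxia, and their RNA was sequenced. Cells had received the solvent DMSO for 24 h (n = 3 libraries) or DHTS at 2 µM for 24 h (n = 3 libraries). DHTS is dihydrotanshinone I, a tanshinone of the plant Salvia miltiorrhiza, and no genotype or other agent distinguished the groups. Nothing in the labels states that replicate libraries are from different cultures, and p-values therefore measure the spread between libraries only, which may be technical. In RNA from bulk cells, fewer cells that express a gene and less of its RNA per cell cannot be told apart.

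Metallothioneins are small cysteine-rich proteins that bind zinc and copper, trap cadmium and react with oxidants. Mt1 and Mt2 encode the isoforms found in most tissues. Mtf1 encodes the zinc-sensing transcription factor MTF1, which enters the nucleus when zinc is high and binds metal response elements. Slc30a1 encodes ZnT1, the exporter that carries zinc out of the cell across the plasma membrane, and is induced by MTF1 together with the metallothioneins. Metallothionein genes also respond to oxidants, glucocorticoids and hypoxia, whereas Mtf1 itself is known mainly for regulation of its protein.

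The metal response element has the core TGCACNC or TGCGCNC, and the promoters of the 3 genes that MTF1 is known to induce are shown because matches to these cores are what they share in sequence. Each window is from RefSeq on build GRCm38.p6 and runs from 250 bases before to 50 bases after the annotated start, on the plus strand, with matches on either strand in capitals. The Mt1 window lies at chr8:94178839-94179138, the Mt2 window at chr8:94172368-94172667 and the Slc30a1 window at chr1:191906531-191906830.
Mt1: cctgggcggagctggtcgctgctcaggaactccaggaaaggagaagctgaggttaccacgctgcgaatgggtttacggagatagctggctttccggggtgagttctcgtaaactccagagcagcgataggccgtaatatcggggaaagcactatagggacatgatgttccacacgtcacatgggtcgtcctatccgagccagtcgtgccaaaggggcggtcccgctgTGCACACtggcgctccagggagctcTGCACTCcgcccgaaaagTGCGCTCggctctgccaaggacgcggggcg
Mt2: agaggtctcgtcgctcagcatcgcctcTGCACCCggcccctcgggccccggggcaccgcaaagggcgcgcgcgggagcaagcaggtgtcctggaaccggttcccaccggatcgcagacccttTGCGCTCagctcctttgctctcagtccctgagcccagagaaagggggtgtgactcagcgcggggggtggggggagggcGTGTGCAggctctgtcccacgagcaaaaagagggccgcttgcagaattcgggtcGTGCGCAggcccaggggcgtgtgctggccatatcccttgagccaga
Slc30a1: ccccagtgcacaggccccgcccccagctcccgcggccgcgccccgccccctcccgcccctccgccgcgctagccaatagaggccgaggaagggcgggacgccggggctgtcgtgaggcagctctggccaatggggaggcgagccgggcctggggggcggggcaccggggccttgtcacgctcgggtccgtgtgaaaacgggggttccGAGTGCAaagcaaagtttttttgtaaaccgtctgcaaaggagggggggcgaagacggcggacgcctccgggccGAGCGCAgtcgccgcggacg
The Mt1 window held 3 matches, the Mt2 window 4 and the Slc30a1 window 2, while the Mtf1 window (chr4:124802299-124802598) held 0. Among all 32851 RefSeq windows of this length, 25.7% held at least 1 match, 7.11% at least 2, 1.97% at least 3 and 0.517% at least 4. In Mt1 the matches began 23 bases before the start and at bases 3 and 21 after it. In Slc30a1 they began 43 bases before the start and 31 bases after it. GENCODE lists further transcript starts downstream of the RefSeq ones, at positions 94179211 and 94179241 for Mt1 and 94172664 and 94172860 for Mt2. The windows around the first 3 of these positions held 5 matches each, a number reached by 0.143% of the RefSeq windows. For the start at 94172860 (Mt2-202) only 266 bases of the window were read, and they held 4 matches. Windows of the same gene overlap, so a match can be counted in more than 1 of them.

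The core of the antioxidant response element, searched as TGACNNNGC on both strands, was present once in the Mt2 window and once in the Slc30a1 window. It was not present in the Mt1 and Mtf1 windows, and 12.4% of all windows held it. In each of the 3 complete windows around downstream starts of Mt1 and Mt2 it was present once, and in the 266 bases read for Mt2-202 it was present 0 times. The E-box CACGTG, found in 7.15% of all windows, was in none of the 4 RefSeq windows. The search covered these letters in these windows only and says nothing of binding.

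In genome order, Mt2 (chromosome 8, 94172664 to 94173568) and Mt1 (chromosome 8, 94179082 to 94180327) are neighbours on the plus strand, Slc30a1 lies on chromosome 1 at 191906767 to 191913247, and Mtf1 lies on chromosome 4 at 124802104 to 124849800 (GENCODE M21, GRCm38). An antisense gene, Gm45774, overlaps Mt2 by 749 bases, and the antisense gene 1700034H15Rik overlaps Slc30a1 by 761 bases. Whether counting used strand is not given in the sources used here, so reads of these pairs may not be separable. The end of Mtf1 likewise overlaps 1110065P20Rik by 721 bases. The longest identical run between the Mt1-201 and Mt2-201 transcripts was 20 bases, although the transcripts are 549 and 511 bases long.

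Values are in FPKM, the authors' scaling of fragments to transcript length and library size, which allows levels to be compared between genes. The libraries held 9343175 to 12255246 estimated fragments. Genes averaging at least 1 FPKM across libraries, 11416 of the 22564, were tested with limma on log2(FPKM + 1), all 4 zinc genes among them. At an adjusted p under 0.05, 3218 genes were higher and 2502 lower with DHTS, or 56.3% of calls higher, against 42.8% under quantile normalization. None of 9 endothelial markers averaged 1 FPKM over the 6 libraries. In all DMSO libraries 7 of them, including Cdh5, Kdr and Tie1, were listed at 0, so the labelled cell type was not borne out by these markers. Their summed level ran from 0.124 to 0.304 FPKM with DMSO and from 1.73 to 2.15 FPKM with DHTS. Vwf averaged 0.0497 FPKM with DMSO and 1.01 FPKM with DHTS. Erg was at 0 in each DMSO library and at 0.348 to 0.671 FPKM with DHTS, and neither gene was tested. Of 6 epithelial markers 5 were tested, and their list summed to 214 to 219 FPKM with DMSO and 255 to 263 FPKM with DHTS. Krt18 (136 to 197 FPKM) and Krt8 (1.35 to 3.79 FPKM) were higher, and Epcam (24.2 to 17.3 FPKM) and Elf3 (34.9 to 19.6 FPKM) lower. Spint1 (20.3 to 22.8 FPKM) did not pass. Cdh1 was too low to be tested, at 0.0319 FPKM with DMSO and 0.0479 FPKM with DHTS, so this list does not settle the cell type either. No marker of leukocytes (4 genes) or fibroblasts (4 genes) averaged 1 FPKM. The part of these marker levels in the results was not tested.

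With DHTS, the metallothionein transcripts were higher and the zinc exporter transcript lower, while the transcript of the regulator did not pass the test. Mt1 stood 1.33-fold and Mt2 1.12-fold above the DMSO level. Slc30a1 stood at 0.599 of it. Of the 4 genes, 3 were thus called in either direction, against 50.1% of all tested genes. Called higher were 2, against 28.2%, and called lower was 1, against 21.9%. The groups did not overlap for 3 of the 4, as for 59.8% of all tested genes, so it is the identity of these genes and the size of their changes, not the number called, that the values describe.

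**Figure D1:**
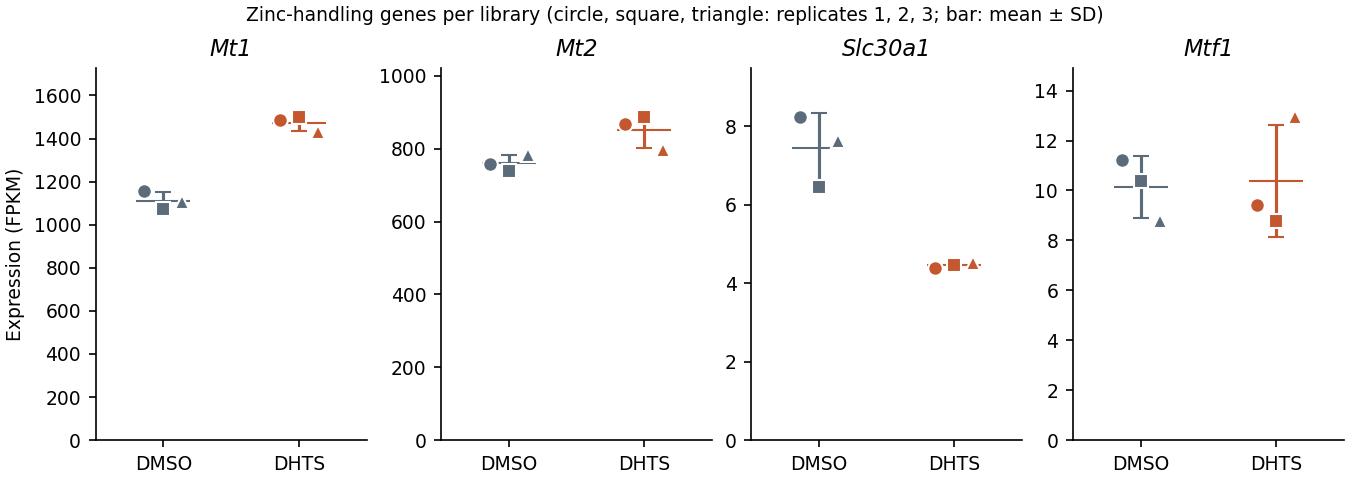
FPKM of Mt1, Mt2, Slc30a1 and Mtf1 in each library after DMSO or DHTS, with the mean and SD of 3 libraries and axes that start at 0. The groups separate for Mt1, Mt2 and Slc30a1, with DHTS replicate 3 of Mt2 at 795 FPKM close to the highest DMSO library at 782 FPKM, and they overlap for Mtf1.

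Mtf1, the sensor, stood at 11.2, 10.4 and 8.78 FPKM after DMSO, against 9.42, 8.78 and 13.0 FPKM after DHTS. The groups overlapped: DHTS replicate 3 was the highest of the 6, and DMSO replicate 3 and DHTS replicate 2 were the lowest. The means were 10.1 ± 1.24 and 10.4 ± 2.25 FPKM (SD, n = 3 each), a log2 fold change of 0.02 (SE 0.15, limma adjusted p = 0.922). The 95% interval of that log2 change ran from −0.34 to 0.38 and leaves room for a moderate rise or fall.

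The spread of Mtf1 was wider in FPKM than in fragments. Its libraries held 306, 315 and 400 fragments with DMSO and 363, 357 and 321 with DHTS, each a whole number within 0.1. After the authors' library scaling these became 332 ± 15.9 and 356 ± 15.5 scaled fragments, a coefficient of variation of 4.78% and 4.37%, close to the 5.42% and 5.37% that counting alone would give. In FPKM the coefficients were 12.3% and 21.6%. The FPKM assigned per scaled fragment of Mtf1 was 0.0358 in DMSO replicate 1 and in DHTS replicate 3, but between 0.0256 and 0.0306 in the other 4 libraries. For Slc30a1 the same quantity ran only from 0.0177 to 0.0178. For Mt1 it ran from 0.355 to 0.385 and for Mt2 from 0.333 to 0.360. GENCODE lists 5 transcripts for Mtf1, 3 for Mt1, 2 for Mt2 and 2 for Slc30a1. The cause of these spreads was not tested. Tested on scaled fragments, the log2 fold change of Mtf1 was 0.10 (limma adjusted p = 0.283).

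Mt1 was among the most abundant transcripts in these cells, at rank 62 of 22564 genes by mean FPKM with DMSO and at rank 38 with DHTS. Its DMSO libraries were at 1156, 1071 and 1105 FPKM, and its DHTS libraries were at 1488, 1501 and 1428 FPKM. Every DHTS library lay above every DMSO library. The means were 1111 ± 42.7 and 1473 ± 38.7 FPKM (SD, n = 3 each). The rise was 0.41 on the log2 scale (SE 0.04, 95% interval 0.32 to 0.49, limma adjusted p = 9.9e-05). It rested on 2803 to 4267 fragments per library, and no setting tried ended the call. Of the genes called higher, 63.9% rose by more on the log2 scale.

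Mt2 stood at rank 109 with DMSO and at rank 95 with DHTS. After DMSO it reached 758, 740 and 782 FPKM, and after DHTS 869, 888 and 795 FPKM. The DHTS values lay higher without overlap, but replicate 3 exceeded the highest DMSO library only narrowly. In scaled fragments the groups overlapped, with DHTS replicate 3 at 2210, below DMSO replicates 2 (2219.9) and 3 (2231). The FPKM means were 760.2 ± 21.4 and 851 ± 48.7 FPKM (SD, n = 3 each), a rise of 0.16 on the log2 scale (SE 0.05, 95% interval 0.05 to 0.27, limma adjusted p = 0.0239). The spread of scaled fragments among the DHTS libraries was 7.31%, above the 2.06% that counting alone would give, on 1960 to 2694 fragments per library. The call was lost under 7 of 14 alternatives, with adjusted p-values from 0.0042 to 0.0808 over all of them. Leaving out DHTS replicate 3 raised the log2 change to 0.21 (adjusted p = 0.0042). Leaving out DMSO replicate 1 (adjusted p = 0.0584), DMSO replicate 2 (0.0734), DHTS replicate 1 (0.0776) or DHTS replicate 2 (0.0738) ended the call. Of the genes called higher, 97.6% rose by more than Mt2, so its change was among the smallest called.

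Together Mt1 and Mt2 came to 1871 ± 53.8 FPKM with DMSO and 2323 ± 87.5 FPKM with DHTS (SD, n = 3 each). That was 0.301% to 0.310% of all FPKM in the DMSO libraries and 0.361% to 0.388% in the DHTS libraries. Mt3, the brain-enriched metallothionein, was listed at 0 in all 6 libraries. Mt4, known from stratified epithelium, was listed at 0 in 5 libraries and at 1.01 FPKM in DHTS replicate 1. Neither was tested.

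The balance between the metallothionein transcripts differed between the groups in these libraries, in a comparison too small to reach significance. The ratio of Mt1 to Mt2 FPKM was 1.52, 1.45 and 1.41 after DMSO, against 1.71, 1.69 and 1.80 after DHTS. All 3 DHTS ratios lay above all 3 DMSO ratios. The mean ratio went from 1.46 ± 0.0571 to 1.73 ± 0.0553 (SD, n = 3 each), a difference of 0.25 on the log2 scale (two-sided exact permutation test, p = 0.1, the smallest p that 3 against 3 libraries allow). A ratio within a library does not depend on the scaling of that library. From scaled fragments the difference was 0.24, with ratios of 1.32 to 1.43 and 1.58 to 1.68.

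**Figure D2:**
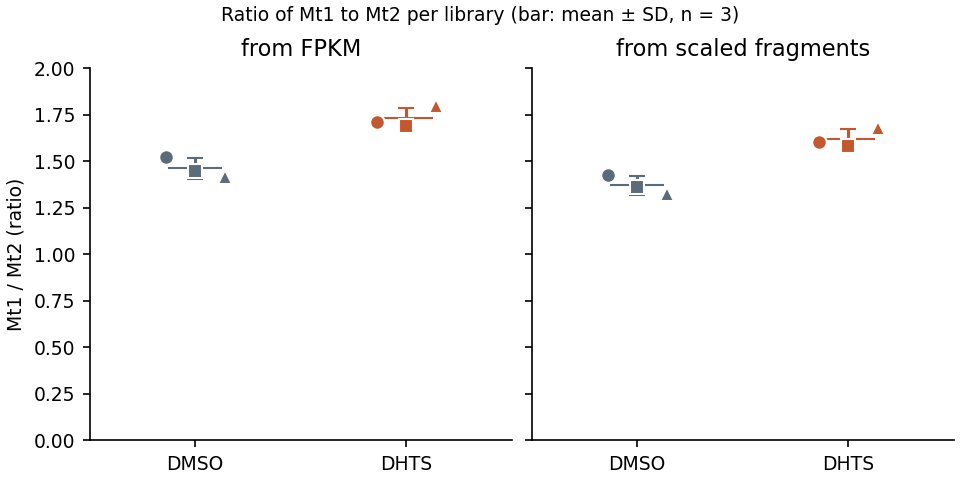
Ratio of Mt1 to Mt2 in each library, from FPKM (left) and from scaled fragments (right), with the mean and SD of 3 libraries and an axis that starts at 0. On either scale the DHTS libraries lie above the DMSO libraries, at a mean FPKM ratio of 1.73 against 1.46.

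Slc30a1, the exporter, was measured at 8.25, 6.46 and 7.62 FPKM in the DMSO libraries. The DHTS libraries stood at 4.39, 4.46 and 4.52 FPKM, all below the lowest DMSO library. The means were 7.44 ± 0.907 and 4.46 ± 0.0662 FPKM (SD, n = 3 each), a log2 fold change of −0.62 (SE 0.10, 95% interval −0.86 to −0.39, limma adjusted p = 0.0017). The pseudocount of 1 makes this an understatement for a gene at this level, and with a pseudocount of 0.1 the log2 fold change was −0.72. Of the genes called lower, 23.3% fell by more.

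The fall of Slc30a1 rested on 453, 339 and 500 fragments with DMSO and 245, 266 and 226 with DHTS. Among the DMSO libraries the coefficient of variation of scaled fragments was 12.1%, against 4.82% from counting. Among the DHTS libraries it was 1.44%, below the 6.38% that counting would give. Leaving out each library in turn gave log2 fold changes from −0.71 to −0.55, and the call held each time.

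By level, the order within DMSO cells was Mt1, Mt2, Mtf1 and Slc30a1, and the FPKM ranges of neighbours in that order did not overlap. The order was the same with DHTS. There the step from Mtf1 to Slc30a1 was wider, since Slc30a1 was lower.

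The other zinc exporters of the SLC30 family, most of which move zinc out of the cytosol into vesicles or out of the cell, were measured beside Slc30a1. Of 11 genes, the 10 of the family in the table and the zinc efflux gene Tmem163, 6 were tested, 3 of which were lower and 0 higher, Slc30a1 included, against 21.9% lower and 28.2% higher over all tested genes. All 6 log2 fold changes were below 0, with a median of −0.21 against 0.03 over all tested genes. Slc30a4, a vesicular zinc transporter, fell from 23.6, 25.2 and 24.8 FPKM to 14.5, 15.7 and 16.7 FPKM. The groups were far apart, at a log2 fold change of −0.62 (SE 0.07, limma adjusted p = 0.00027), almost the same as that of Slc30a1. Slc30a5, which supplies zinc to enzymes of the secretory pathway, was lower by less (−0.22, SE 0.06, adjusted p = 0.0201). Its call was lost with a replicate block (adjusted p = 0.0531) and without DMSO replicate 2 (0.0506), DMSO replicate 3 (0.0675), DHTS replicate 2 (0.0568) or DHTS replicate 3 (0.0599). Across the alternatives its adjusted p ran from 0.0016 to 0.0675. Slc30a6, Slc30a7 and Slc30a9 stood at −0.19, −0.16 and −0.19 on the log2 scale and did not pass. Under quantile normalization and on scaled fragments all 6 exporters were called lower, and under median-ratio scaling 5. These settings also called more of all genes lower, 3411, 3411 and 2939 in that order, against 2502 in the reported fit. On scaled fragments a larger set of genes was tested. In the same order the exporter medians were −0.31, −0.22 and −0.25, against −0.07, 0.03 and −0.01 over all tested genes. Slc30a6 was also called without DHTS replicate 3 (adjusted p = 0.0200) and Slc30a7 without DMSO replicate 1 (0.0383). The remaining 5 genes were too low to be tested.

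The zinc importers of the SLC39 family, which bring zinc into the cytosol, included genes called in either direction. Of 14 members 9 were tested, with 3 higher and 1 lower, where 28.2% and 21.9% of all tested genes were higher and lower, so the number called higher is near the background. Slc39a6, a plasma membrane importer, went from 17.6, 18.1 and 19.0 FPKM with DMSO to 34.8, 33.2 and 33.0 FPKM with DHTS. Its groups stood far apart, at a log2 fold change of 0.85 (SE 0.05, limma adjusted p = 1.9e-05). Slc39a7, which releases zinc from the endoplasmic reticulum, rose by 0.22 and Slc39a13 by 0.37. The fragments of Slc39a7 did not come out whole, as where reads are shared between genes. Slc39a1, a plasma membrane importer expressed widely, fell from 96.8 ± 2.38 to 71.3 ± 2.23 FPKM (SD, n = 3 each; −0.44, SE 0.04, limma adjusted p = 0.00012). The median over the 9 was 0.09, but −0.08 under quantile normalization, with 3 higher and 4 lower. That setting called 2551 of all 11416 tested genes higher and 3411 lower. Its median over all tested genes was −0.07, so the importer median there is near the background. On scaled fragments the importer median was −0.07, with 4 higher and 3 lower. Of the larger set of genes tested on that scale, 4050 were higher and 3411 lower, with a median of 0.03. The importer median also turned to −0.09 without DHTS replicate 3 and was 0.02 without DMSO replicate 2. It was 0.15 without DMSO replicate 1 and 0.22 without DHTS replicate 2, and without DHTS replicate 1 the number lower was 3. Slc39a14, an importer of zinc and other metals, stood at 58.9, 52.3 and 54.6 FPKM after DMSO and 65.2, 59.6 and 83.7 FPKM after DHTS, without overlap, and did not pass (adjusted p = 0.0684), but was called higher without DHTS replicate 2 (0.0274) and on scaled fragments (1.3e-06).

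**Figure D3:**
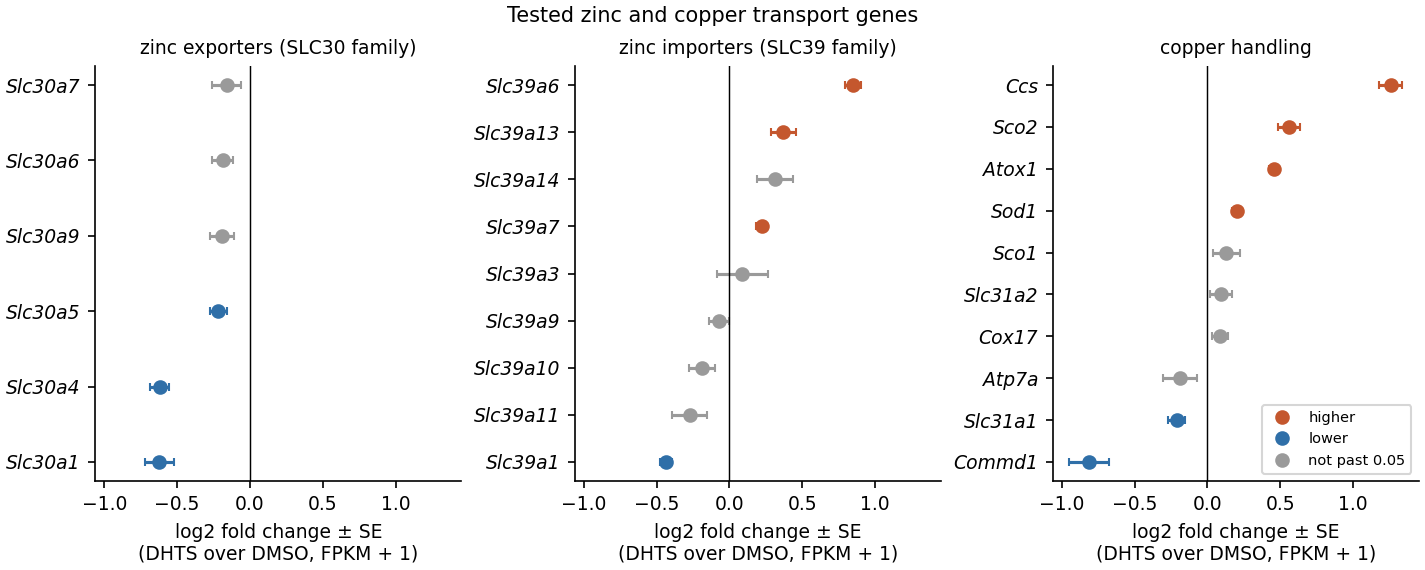
Log2 fold change of DHTS over DMSO on the log2(FPKM + 1) scale for the tested genes of zinc export, zinc import and copper handling, with limma standard errors as bars and colours for genes called higher, lower or neither. The 6 exporters all lie below 0, whereas importers and copper genes lie on either side.

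Copper, which metallothioneins also bind, is carried by its own chaperones. Of 11 copper-handling genes 10 were tested, 4 of them higher and 2 lower, against 28.2% and 21.9% of all tested genes, and the median of their log2 changes was 0.11. Ccs, the copper chaperone of superoxide dismutase, rose from 44.4, 37.9 and 39.2 FPKM to 104, 101 and 89.8 FPKM. That was the largest rise of the list, at 1.26 (SE 0.08, limma adjusted p = 1.9e-05). Atox1, the chaperone that hands copper to the export pumps, rose from 218 ± 0.962 to 299.8 ± 12.7 FPKM (SD, n = 3 each; 0.46). Sod1, the superoxide dismutase that Ccs loads, rose by 0.20, and Sco2, a copper protein of cytochrome oxidase assembly, by 0.56. Commd1, a regulator of copper export, fell from 52.1, 49.9 and 37.2 FPKM to 23.7, 24.8 and 29.1 FPKM (−0.81, SE 0.14, adjusted p = 0.0024), and by 0.53 on scaled fragments. The fragments of Sco2 and Commd1 did not come out whole either. The uptake transporter gene Slc31a1 fell by 0.21 (adjusted p = 0.0190), a call lost when DMSO replicate 2 (0.0605), DHTS replicate 1 (0.0594) or DHTS replicate 2 (0.0533) was left out.

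Other genes reported to respond to MTF1 were called in either direction. Of 7 tested, 2 were higher and 3 lower, against 28.2% and 21.9% of all tested genes. Under quantile normalization 1 was higher and 4 lower, where 2551 and 3411 of all 11416 tested genes were higher and lower. The median of their log2 changes was −0.19, which is the value of Slc39a10. Because MTF1 is known to repress that gene, the counts and the median do not measure a response in a single direction. Gclc, the catalytic subunit of the first step of glutathione synthesis, rose from 29.7 ± 1.09 to 69.7 ± 2.25 FPKM (SD, n = 3 each; 1.20, SE 0.05, limma adjusted p = 2.1e-06). Pgf, the placental growth factor gene, went from 0.634, 0.659 and 0.413 FPKM to 1.81, 1.69 and 1.17 FPKM (0.70, adjusted p = 0.0076), a call lost under quantile normalization (0.31, adjusted p = 0.157). With a pseudocount of 0.1 its log2 change was 1.31 and on scaled fragments 1.34. Slc40a1, the iron exporter ferroportin, stood at 8.86, 8.19 and 8.93 FPKM after DMSO and 3.46, 3.72 and 3.57 FPKM after DHTS. It fell by 1.08 on the log2 scale (SE 0.08, adjusted p = 3.6e-05). Sepw1, now named Selenow, fell by 0.35, and Csrp1 by 0.35. Slc39a10, a zinc importer that MTF1 is known to repress, stood at −0.19 and did not pass (adjusted p = 0.128), but was called lower under quantile normalization (0.0204), without DHTS replicate 1 (0.0396) and on scaled fragments (0.0323).

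Genes that glucocorticoids induce, as they do the metallothioneins, were likewise called in either direction. Of 9 matched genes 8 were tested, with 3 higher and 3 lower, against 28.2% and 21.9% of all tested genes. Under most alternatives, quantile normalization among them, 2 were higher and 3 lower. Quantile normalization called 2551 of all 11416 tested genes higher and 3411 lower. Fkbp5 fell by 0.63 (SE 0.10), Tsc22d3 by 0.83 (SE 0.16) and Errfi1 by 0.24 (SE 0.04). Dusp1, a phosphatase of MAP kinases that many stresses induce, rose from 34.9 ± 1.68 to 104 ± 0.693 FPKM (SD, n = 3 each; 1.56, limma adjusted p = 5.4e-07). Pdk4, a kinase that restrains pyruvate oxidation, rose by 1.42 from a low level of 2.15 ± 0.499 FPKM. Per1 rose by 0.62 (SE 0.21, limma adjusted p = 0.0451), with overlapping groups. The Per1 call was lost under 9 of 14 alternatives, among them median-ratio scaling, quantile normalization and leaving out any library but DHTS replicate 2.

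Genes on either side of Mt1 and Mt2 on chromosome 8 were called in either direction. Of the 5 nearest table genes on each side, Mt3 and Mt4 included, 7 were tested, with 3 higher and 3 lower, against 50.1% of all tested genes called. Nup93, a nuclear pore gene 35.5 kb from the Mt1 start, rose by 0.31 (SE 0.04, limma adjusted p = 0.00075). Herpud1, a gene of endoplasmic reticulum protein degradation, fell by 1.16, and Nlrc5, the activator of MHC class I genes, went from 2.31, 2.28 and 2.51 FPKM to 27.6, 31.1 and 32.2 FPKM. Cpne2 rose by 0.87. On the other side Nudt21, a gene of mRNA 3′ end processing, fell by 0.35 and Ogfod1 by 0.29. The Ogfod1 call was lost under 7 of 14 alternatives, and among these were the fits that left out DMSO replicate 2 (adjusted p = 0.0831), DMSO replicate 3 (0.0797) and each DHTS library (0.0536 to 0.0932). Its adjusted p over all alternatives ran from 1.1e-05 to 0.0932. Bbs2 stood at 0.21 and did not pass. All 7 were above 0 in every library, and Slc12a3, Mt3 and Mt4 were too low to be tested.

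**Figure D4:**
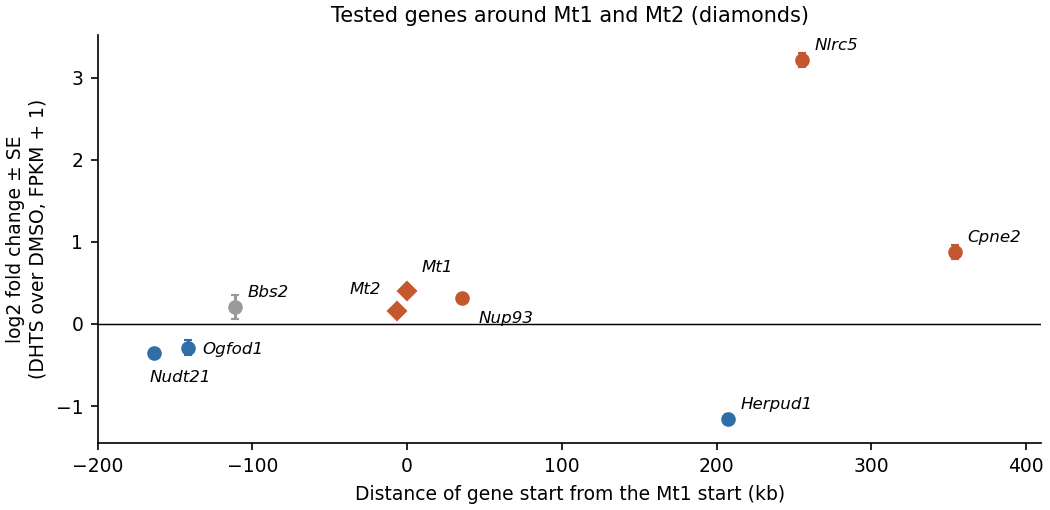
Log2 fold change of DHTS over DMSO, with limma standard errors, for the tested genes around Mt1 and Mt2, against the distance of each gene's start from the Mt1 start in kb. Mt1, Mt2 and Nup93 lie between 0.16 and 0.41, while genes farther out range from −1.16 to 3.21.

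The genes nearest in pattern were sought among 8993 tested genes with a mean of at least 5 FPKM, leaving out the 4 genes themselves, symbols listed more than once and model names (Gm or Rik), by Euclidean distance between centred log2(FPKM + 1) profiles over the 6 libraries. This describes these libraries only. Nearest to Mt1 were Sema3e, a guidance ligand (distance 0.0576), the bradykinin receptor gene Bdkrb2 (0.0590) and Ylpm1 (0.0605). Sema3e went from 12.8, 12.0 and 12.4 FPKM to 17.2, 16.6 and 16.5 FPKM. Nearest to Mt2 were Mat2b (0.0555), a subunit of methionine adenosyltransferase, the chaperone gene Canx (0.0605) and Syne3 (0.0620). For Slc30a1 the nearest were Pgp (0.136), Yif1b (0.140) and the Src family kinase gene Lyn (0.151), and Pgp, like Slc30a1, had its highest DMSO value in replicate 1 (62.8 FPKM) and its lowest in replicate 2 (48.3 FPKM). Nearest to Mtf1 were Zmym5 (0.111), Gpcpd1 (0.133) and Dph5 (0.136), each highest in DHTS replicate 3. The fragments of Zmym5 did not come out whole.

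The change of each zinc gene was recomputed under 14 alternatives of filter, scaling, test and library. Mt1 and Slc30a1 were called in the same direction under all 14. Mt2 stayed above 0 throughout but passed the test under 7 of them, and Mtf1 passed under 0.

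**Figure D5:**
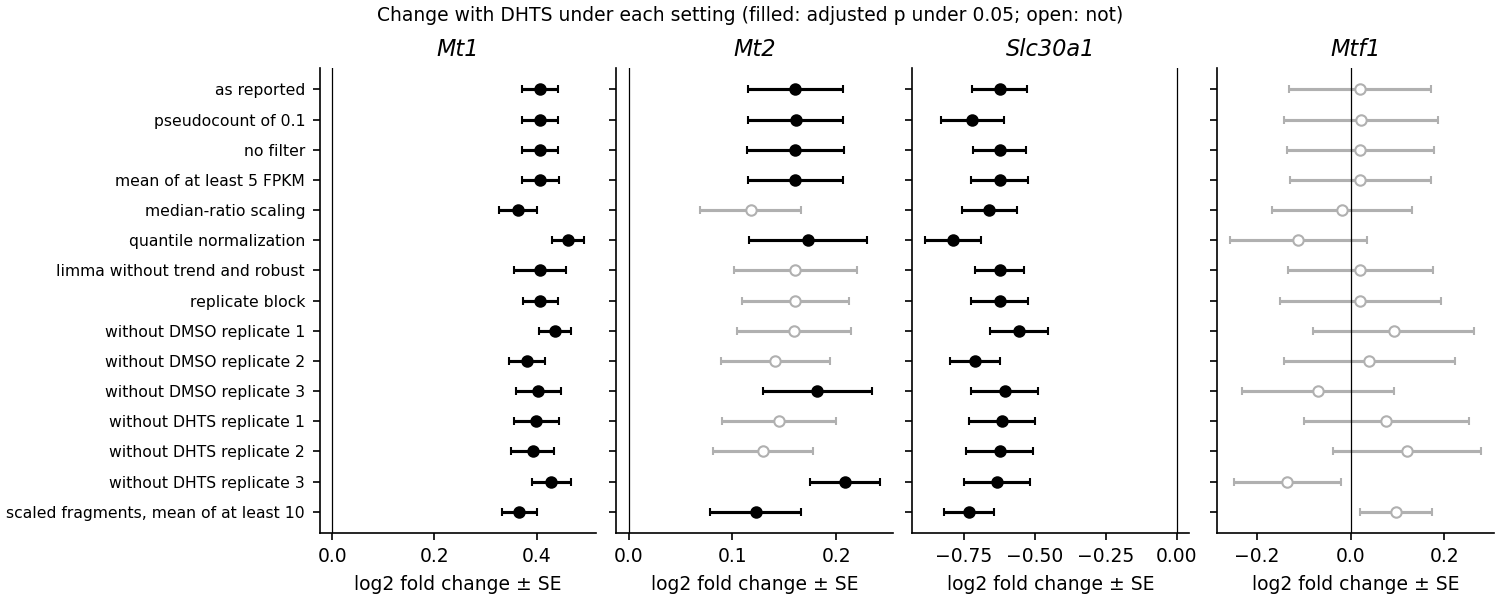
Log2 fold change of DHTS over DMSO, with limma standard errors, for Mt1, Mt2, Slc30a1 and Mtf1 under the reported setting and 14 alternatives, with filled points where the adjusted p was under 0.05. Mt1 ranged from 0.36 to 0.46 and Slc30a1 from −0.79 to −0.55, all filled, while Mt2 is filled and open in turn and Mtf1 lies on either side of 0.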

How the data were processed

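RNA of 6 libraries was measured, 3 per group by the titles in the labels. The submitters' processing notes list Cuffdiff 2.2.1, Cufflinks, HISAT2 2.0.4 and fastp 0.20.0, and the build mm10. The step each served was not given in the sources used here, nor was the annotation. Deposited by the authors were FPKM values, and a second block, headed as counts, whose values are a signal of estimated fragments divided by 1 factor per library. Fragments were recovered by dividing by the commonest value of each library, and 92.7% to 93.0% of the nonzero results were then whole to within 0.1. Because the rest were not whole, no count model was fitted.

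Genes with a mean of at least 1 FPKM entered a fit of log2(FPKM + 1) by limma 3.58.1 (R 4.3.3), trend and robust options on, treatment as the only term, two-sided, with Benjamini-Hochberg adjustment over 11416 genes and a threshold of 0.05. The pseudocount of 1 understates the change of low genes. SE is limma's moderated standard error and intervals are unadjusted. Coefficients of variation from counting cover counting error only. The fit was tested on simulated data. Alternatives changed the pseudocount, the filter, the scaling (median-ratio, quantile), the limma options, the unit (scaled fragments) or the libraries, or added a replicate block.

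The members, lists, alternatives and motifs were chosen with earlier results of these data known. Named were the 4 genes and, for each list, the called genes of largest change (at most 4). Also named were the 5 neighbours on each side of Mt1 and Mt2, and the 3 genes nearest in pattern to each of the 4. Slc30a6, Slc30a7, Slc30a9, Slc39a10, Slc39a14, Slc31a1, Sod1, Csrp1, Per1, Errfi1, Spint1, Cdh1, Vwf, Erg, Mt3 and Mt4 were named after their values were seen. Of 80 list entries 79 were matched. Ratios were compared by exact permutation with scipy 1.17.1.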

Additional observations from a re-analysis of the deposited data

How the results depend on the processing

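The direction of Mt1 and Slc30a1 and their calls held under 14 alternatives, with log2 fold changes from 0.36 to 0.46 and from −0.79 to −0.55. The Mt2 call was lost under median-ratio scaling (log2 fold change 0.12, adjusted p = 0.0808), with limma without trend and robust (0.16, adjusted p = 0.0677) and with a replicate block (0.16, adjusted p = 0.0563). Leaving out 1 library gave Mt2 log2 fold changes from 0.13 to 0.21, and the call was lost in 4 of these 6 fits; the cause was not tested. Mtf1 ranged from −0.13 to 0.12 and did not pass. The Mt1 to Mt2 difference ranged from 0.22 to 0.28 on the log2 scale. Genes called higher numbered 2551 to 4050 and genes called lower 2176 to 3411. With the replicate block 3053 were higher and 2384 lower. Same-numbered libraries of the groups had deviations correlated at −0.05, 0.06 and 0.01 for numbers 1, 2 and 3. Pairs with different numbers ran from −0.08 to 0.08. The labels state no pairing, and correlations of this kind cannot show whether libraries were handled in pairs. Of 865 refits of 62 other genes, those of the lists, the neighbours and the nearest in pattern, 814 kept their side of the threshold, 25 lost a call, 26 gained one and 0 turned. Counting alone gives a coefficient of variation of 1.62% to 6.38% for the 4 genes.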
